A study of Mus musculus with 8 samples.

Results

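The genes described here are 7 genes of blood clotting and of clot breakdown, Vwf, F8, Procr, Tfpi, F3, Plat and Plau, out of 23238 gene symbols counted in ribosome-bound RNA of mouse lung endothelium. They were found in the tables by symbol. Libraries came from 2 groups of C57BL/6J mice with 4 libraries each. The Sox17-deleted hypoxia group had the genotype Cdh5-CreERT2;Sox17fl/fl;RPL22tm1.1Psam and spent 3 weeks in hypoxia from 10 weeks of age. The control normoxia group had the genotype Cdh5-CreERT2; RPL22tm1.1Psam and spent the same 3 weeks in room air. Mice of both groups were given 2 mg of tamoxifen daily for 5 days at 8 weeks of age. Cdh5-CreERT2 is a recombinase made in endothelial cells and switched on by tamoxifen. The RPL22 allele puts a haemagglutinin tag on ribosomes of cells in which the recombinase has acted, so that their transcripts can be pulled down from whole lung. Genotype and oxygen changed together, and neither a Sox17-deleted group in room air nor a control group in hypoxia was analysed here. The effects of the deletion and of hypoxia therefore cannot be told apart.

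Endothelium keeps blood fluid by balancing these genes. Von Willebrand factor, encoded by Vwf, is a large glycoprotein that endothelial cells store in Weibel-Palade bodies. It tethers platelets to injured vessel walls and carries factor VIII, the clotting cofactor encoded by F8. Tissue factor, encoded by F3, starts clotting when blood meets cells outside the vessel, and tissue factor pathway inhibitor, encoded by Tfpi, blocks that step. The endothelial protein C receptor, encoded by Procr, presents protein C to the thrombin-thrombomodulin complex, which turns it into an anticoagulant. Tissue plasminogen activator (Plat) and urokinase (Plau) convert plasminogen into plasmin, the enzyme that dissolves fibrin.

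Levels are given as CPM, where a value of 1 is a millionth of the total, that is, each library's counts for a gene scaled to its own total. Totals ranged from 7000313 to 12913304 counts in Sox17-deleted libraries and from 10567561 to 11884614 in control libraries (two-sided exact permutation p = 0.486). Symbols with a count numbered 8450 ± 306 in Sox17-deleted and 10080 ± 259 in control libraries (SD, n = 4 each; exact permutation p = 0.0286, which is the lowest value possible with groups of 4). Sox17 had 473, 31, 6 and 41 counts in Sox17-deleted libraries 1 to 4 and between 2442 and 3072 in control libraries. Whether the deletion removes the 3′ end that the tags read is not stated in the labels, so these counts may not measure intact transcripts. The 16 pan-endothelial markers had counts in all 8 libraries and summed to 9352 to 14983 CPM in Sox17-deleted and 13627 to 14738 CPM in control libraries (exact permutation p = 0.686). The 11 alveolar type 2 markers summed to 2082 to 4207 CPM in Sox17-deleted libraries and 983 to 1310 CPM in control libraries, and 9 of the 11 tested members had a positive fold change. Club and ciliated markers summed to 3941 to 6496 CPM in Sox17-deleted and 1930 to 2757 CPM in control libraries (exact permutation p = 0.0286). The alveolar type 1 sum averaged 1356 CPM in Sox17-deleted and 1395 CPM in control libraries (exact permutation p = 0.714). Among alveolar type 1 markers, 6 of the 7 tested had a positive fold change. Clic5, the most abundant of them, averaged 459 CPM in Sox17-deleted and 802 CPM in control libraries. General capillary markers averaged 8140 CPM in Sox17-deleted and 12360 CPM in control libraries (exact permutation p = 0.0286), with a negative fold change in 8 of the 9 tested. The 10 fibroblast markers summed to 793 to 9156 CPM in Sox17-deleted and 596 to 753 CPM in control libraries, with a positive fold change in 5 of the 8 tested. Gsn carried most of the fibroblast sum in the Sox17-deleted group, at 2679 ± 3707 CPM against 322 ± 108 CPM in control libraries. Col1a2, Inmt, Mfap4 and Pdgfra also averaged higher there, at 320, 215, 50.9 and 20.4 CPM against 106, 91.8, 12.9 and 2.84 CPM in control libraries. Col1a1 averaged 8.07 CPM in Sox17-deleted and 36.5 CPM in control libraries, and Dcn 43.9 CPM in Sox17-deleted and 63.0 CPM in control libraries. Col3a1 and Tcf21 also averaged lower in Sox17-deleted libraries. Sftpc was the most abundant of the alveolar type 2 markers, and no fibroblast or alveolar type 2 marker was at 0 in all libraries.

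Of the 7 members, Vwf alone was detected well above 0 in every library. With detection set at 3 counts, Plat was detected in 7 of 8 libraries and Tfpi in 5. Procr, F3 and Plau were detected in 2 libraries each, and F8 in none. Vwf, Tfpi and Plat passed the expression filter and were tested; the other 4 members were not. None of the 3 tested members was called by edgeR at an adjusted p of 0.05, and none had an unadjusted p under 0.05. Over all 8282 genes tested, 0.0% were called and 5.12% had an unadjusted p under 0.05, so 0 of 3 members is what that background gives. For none of the 7 did the groups fail to overlap, which they did for 4.48% of the 14071 genes with a count (0.995% higher and 3.48% lower in Sox17-deleted libraries). Since the libraries are whole pulldowns, fewer cells of a type and less RNA per cell cannot be told apart.

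**Figure D1:**
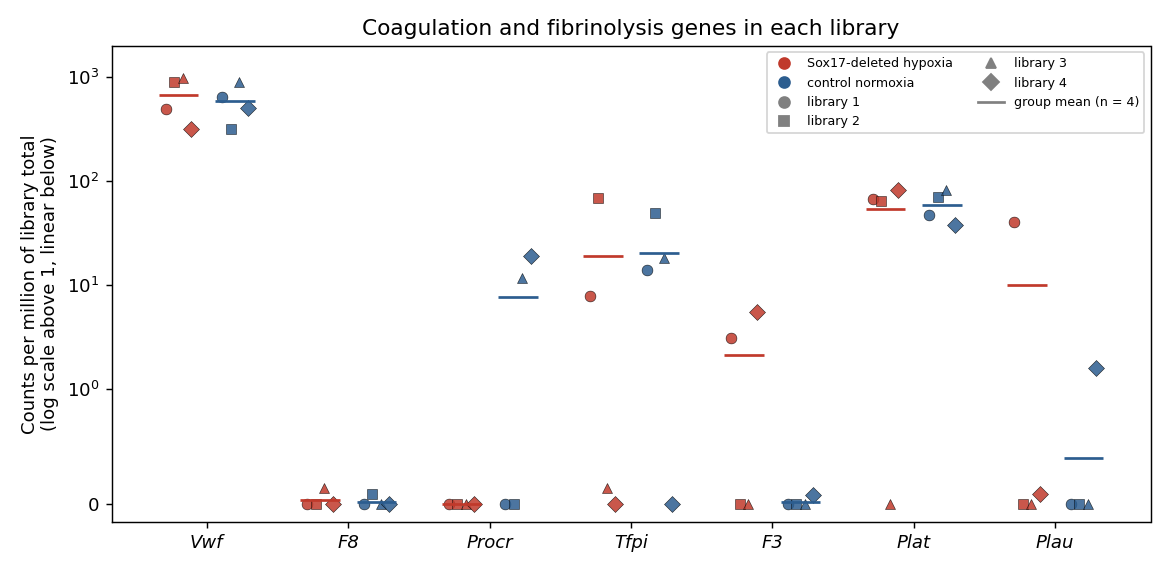
CPM of library total for the 7 members in each library, with Sox17-deleted hypoxia left of control normoxia for each gene; symbols mark the library number, horizontal lines the group mean (n = 4), and the axis is logarithmic above 1 and linear below. Vwf lies between 317 and 987 CPM in all libraries, while Procr, F3 and Plau are each detected in 2 libraries.

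Vwf (chromosome 6, 125546774 to 125686679, plus strand, GRCm38) had 492, 896, 987 and 320 CPM in Sox17-deleted libraries 1 to 4 and 644, 317, 905 and 501 CPM in control libraries 1 to 4. Each group held 1 library near 320 CPM and at least 1 near 900 CPM, so the groups overlapped almost fully. The group means were 674 ± 319 CPM in Sox17-deleted and 592 ± 248 CPM in control libraries (SD, n = 4 each). The log2 fold change was 0.24 (SE 0.43, edgeR adjusted p = 0.9997), with a 95% interval from −0.68 to 1.15. Counting error does not set this width: the library with the fewest Vwf counts, 3508, has a counting error of 1.69%, against a spread between libraries of 47.4% in the Sox17-deleted and 41.9% in the control group.

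The level of Vwf was also set against endothelial RNA in the same library. Per 1000 counts of the pan-endothelial markers, Vwf had 32.8, 66.2, 66.5 and 34.2 counts in Sox17-deleted libraries 1 to 4 and 44.9, 23.3, 62.1 and 34.0 in control libraries 1 to 4. The groups overlapped on this scale too, and the spread within each group did not shrink to a common value. The Sox17-deleted library with the lowest Vwf CPM, library 4, also had the lowest pan-endothelial sum of all 8 libraries, at 9352 CPM. Without Sox17-deleted library 3, where Vwf was highest, the log2 fold change was −0.09 (edgeR adjusted p = 1.0).

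Megakaryocytes and platelets also make or carry von Willebrand factor. Of 8 markers of these cells, 4 (Gp1ba, Gp9, Treml1 and Tubb1) were at 0 in all libraries. The 8 markers summed to 0 to 6.57 CPM in Sox17-deleted libraries and 0.181 to 12.6 CPM in control libraries. Of the 8 vein markers, Ackr1 was at 0 in all libraries and Selp was detected in 1 library of each group. Nr2f2, Slc6a2, Ephb4 and Prss23 had counts in every library. Car8 went against the sum, at 48.2 CPM in Sox17-deleted and 1.89 CPM in control libraries. Vcam1 averaged 39.7 CPM in Sox17-deleted and 42.8 CPM in control libraries. The vein marker sum averaged 411 CPM in Sox17-deleted and 586 CPM in control libraries (exact permutation p = 0.0857). Of the 6 vein markers tested, 4 had a negative and 2 a positive fold change. Patterns nearest to that of Vwf over the 8 libraries belonged to Cox6a1, a respiratory chain subunit gene, Brk1, an actin regulator gene, and Lyn, a kinase gene. Their root mean square differences from Vwf in centred log2(CPM + 1) were 0.257, 0.310 and 0.328, against a median of 1.11 over 3704 genes.

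F8 (chromosome X, 75172715 to 75382615, minus strand), which overlaps Fundc2 on the opposite strand, was not detected in either group at this depth. It had 1 count in Sox17-deleted library 3 and 1 count in control library 2, and 0 in the other libraries. The detection limit of 3 counts corresponds to 0.232 to 0.429 CPM in Sox17-deleted and 0.252 to 0.284 CPM in control libraries, and lung endothelium is a known site of factor VIII production. The counts come from tags at the 3′ ends of transcripts, and whether the tags of F8 fall inside the gene model used for counting was not tested. Genes for the secretion of factor VIII were detected in every library. Lman1 and Mcfd2 encode the cargo receptor pair that carries factors V and VIII out of the endoplasmic reticulum. Lman1 averaged 240 ± 61.1 CPM in Sox17-deleted and 266 ± 85.6 CPM in control libraries (log2 fold change −0.12, SE 0.40, and −0.38 to 0.08 with a library left out). Mcfd2 averaged 150 ± 154 CPM in Sox17-deleted and 86.0 ± 44.0 CPM in control libraries (log2 fold change 0.76, SE 0.90, edgeR adjusted p = 0.9997 for both). Without Sox17-deleted library 4 the value for Mcfd2 was 0.14, and its sign turned in 2 of 18 alternatives, the lowest being −0.26.

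Procr (chromosome 2, 155751117 to 155755471, plus strand) was seen in control libraries only, but not in all of them. It had 0 counts in each of the 4 Sox17-deleted libraries, and 0, 0, 137 and 224 counts in control libraries 1 to 4. Control libraries 1 and 2 were thus as empty as the Sox17-deleted ones, and the groups overlapped at 0. Procr missed the expression filter. Tested without a filter it had an edgeR unadjusted p of 0.0440 and an adjusted p of 0.360, where 11.4% of 14071 genes had an unadjusted p under 0.05 and 0.121% were called. DESeq2 gave an adjusted p of 0.130. Empty libraries were common at this level: of 1924 genes with a mean of 1 to 5 CPM, 45.3% had 0 or 1 count in all 4 Sox17-deleted libraries and 13.6% had 0 or 1 count in all 4 control libraries. Of 2520 genes with a mean of 5 to 15 CPM, these shares were 12.5% and 7.02%. Procr, with a mean of 3.83 CPM over the 8 libraries, lay in the upper part of the lower range. Its absence from the Sox17-deleted libraries was thus shared by many genes of 1 to 5 CPM, and by fewer at higher levels.

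Tfpi (chromosome 2, 84432855 to 84476775, minus strand) varied more within each group than between them. It had 101, 650, 1 and 0 counts in Sox17-deleted libraries 1 to 4, or 7.82, 68.8, 0.143 and 0 CPM. Control libraries 1 to 4 had 147, 548, 213 and 0 counts, or 13.9, 49.5, 18.3 and 0 CPM. Both groups therefore ran from 0 to about 50 CPM or more, with library 2 highest in each. The log2 fold change was −0.17 (SE 2.37, edgeR adjusted p = 0.9997), with a 95% interval from −5.25 to 4.92, which allows a large change either way. Of 2762 genes with a mean of 15 to 40 CPM, 78.7% had 0 or 1 count in at least 1 Sox17-deleted library and 36.2% in at least 1 control library.

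F3 (chromosome 3, 121723537 to 121735048, plus strand) was detected in Sox17-deleted libraries only. It had 40, 0, 0 and 61 counts in Sox17-deleted libraries 1 to 4 and 0, 0, 0 and 1 in control libraries 1 to 4. The 2 libraries that held it reached 3.10 and 5.47 CPM, while Sox17-deleted libraries 2 and 3 matched the controls at 0. Tested without the filter, F3 had an edgeR unadjusted p of 0.118 and an adjusted p of 0.544, and DESeq2 gave an adjusted p of 0.368. Tissue factor is also made by epithelial cells and fibroblasts. Their alveolar type 2, club and ciliated, and fibroblast marker sums were higher in Sox17-deleted libraries (exact permutation p = 0.0286 for each of these). The alveolar type 1 sum was not (exact permutation p = 0.714), though 6 of the 7 tested alveolar type 1 markers had a positive fold change. The fibroblast sum was mostly Gsn, and 5 of the 8 tested fibroblast markers had a positive fold change. The F3-positive libraries 1 and 4 had alveolar type 2 sums of 2082 and 2918 CPM and fibroblast sums of 1020 and 9156 CPM. The F3-negative Sox17-deleted libraries 2 and 3 had alveolar type 2 sums of 4207 and 2128 CPM and fibroblast sums of 2515 and 793 CPM. The part of these cells in the F3 counts was not tested.

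SOX17 is a DNA-binding factor and hypoxia acts through hypoxia-inducible factors, so the bases before the start of the members were searched for the core letters bound by each family. Of the members with a promoter sequence, the inhibitor gene, its target and the protein C receptor gene had a window outside the gene model. Their sequences are given here, 5′ to 3′ on the strand of the gene, from RefSeq on GRCm38.p6. Each ends at the base before the first annotated start, and capitals mark ACAAT or its reverse complement, the SOX core, and ACGTG or its reverse complement, the hypoxia core.
Tfpi upstream (chr2:84476776-84477009, minus strand): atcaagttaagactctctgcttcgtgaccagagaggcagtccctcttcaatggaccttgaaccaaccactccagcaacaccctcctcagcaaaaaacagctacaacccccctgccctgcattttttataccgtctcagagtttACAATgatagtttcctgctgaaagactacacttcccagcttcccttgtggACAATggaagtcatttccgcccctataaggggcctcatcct
Procr upstream (chr2:155750967-155751116, plus strand): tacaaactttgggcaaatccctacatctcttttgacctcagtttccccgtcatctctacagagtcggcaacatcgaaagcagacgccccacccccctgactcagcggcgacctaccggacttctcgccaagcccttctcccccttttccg
F3 upstream (chr3:121723287-121723536, plus strand): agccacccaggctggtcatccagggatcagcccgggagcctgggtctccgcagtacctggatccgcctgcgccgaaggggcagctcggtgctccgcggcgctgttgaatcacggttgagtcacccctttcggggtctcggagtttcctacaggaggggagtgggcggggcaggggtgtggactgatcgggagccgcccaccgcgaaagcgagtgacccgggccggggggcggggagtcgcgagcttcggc
The Tfpi sequence held 2 matches to ACAAT and none to ACGTG. The Procr and F3 sequences held neither. The windows before a second Tfpi start and the F8 start lie inside the gene models, and each held 1 match to ACAAT. Among 32851 RefSeq promoter windows of 250 bases, 27.7% held ACAAT and 16.6% held ACGTG on either strand, so a match is common. A match is a run of letters and was not tested for binding.

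Plat (chromosome 8, 22757727 to 22782844, plus strand) was close between the groups in all but 1 library. It had 67.2, 64.6, 0 and 82.0 CPM in Sox17-deleted libraries 1 to 4 and 47.2, 70.3, 82.9 and 37.5 CPM in control libraries 1 to 4. Sox17-deleted library 3 had 0 counts of Plat out of 7000313, while the other 3 Sox17-deleted libraries lay inside the range of the controls. The log2 fold change was −0.18 (SE 1.32, edgeR adjusted p = 0.9997), with a 95% interval from −3.02 to 2.66. Without Sox17-deleted library 3 it was 0.23 (edgeR adjusted p = 1.0). Of 2321 genes with a mean of 40 to 100 CPM, 31.4% had 0 or 1 count in at least 1 Sox17-deleted library and 5.69% in at least 1 control library. The patterns nearest to that of Plat over the 8 libraries were those of the splicing gene Smu1 and the near-identical MHC genes H2-T9 and H2-T22, at root mean square differences of 0.298, 0.316 and 0.327 against a median of 2.17 over 3704 genes.

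Plau (chromosome 14, 20836660 to 20843385, plus strand), the other plasminogen activator gene, was mostly empty. It had 521, 0, 0 and 1 counts in Sox17-deleted libraries 1 to 4 and 0, 0, 0 and 19 in control libraries 1 to 4. A single library, Sox17-deleted library 1 at 40.3 CPM, held nearly all of its counts. The edgeR unadjusted p without a filter was 0.241 and the adjusted p 0.687. Macrophage and monocyte markers, from cells that also make urokinase, summed to 159 CPM in that library, inside the range of 104 to 429 CPM of the Sox17-deleted group, against 65.5 to 119 CPM in control libraries. Neutrophil markers summed to 413 CPM in that library, against 51.3 to 173 CPM in the other Sox17-deleted and 48.5 to 124 CPM in control libraries. In the Sox17-deleted group that sum was mostly S100a8, S100a9 and Mmp9, while Retnlg and Cxcr2 averaged 1.53 and 0.0979 CPM. Lymphatic markers summed to 3273 CPM in Sox17-deleted library 1, against 1305 to 1952 CPM in the other Sox17-deleted and 1633 to 2204 CPM in control libraries. Lyve1 and Ccl21a carried most of the lymphatic sum in both groups, and the lymphatic marker Prox1 was at 0 in 7 libraries. The part of any of these cells in the Plau counts was not tested.

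Around these members, 61 other genes of the same pathways were followed in 6 lists, of which 51 had a count and 25 were tested. None of the 25 was called by edgeR, 13 had a positive and 12 a negative fold change, and their median log2 fold change was 0.03, beside −0.01 over all 8282 genes. An unadjusted p under 0.05 was found for 2 of the 25, Anxa2 and Ptgis, beside 5.12% of all genes tested. The groups did not overlap for the same 2 genes, with Sox17-deleted libraries higher for both, where they did not overlap for 6.59% of all genes tested (1.63% higher and 4.96% lower in Sox17-deleted libraries).

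**Figure D2:**
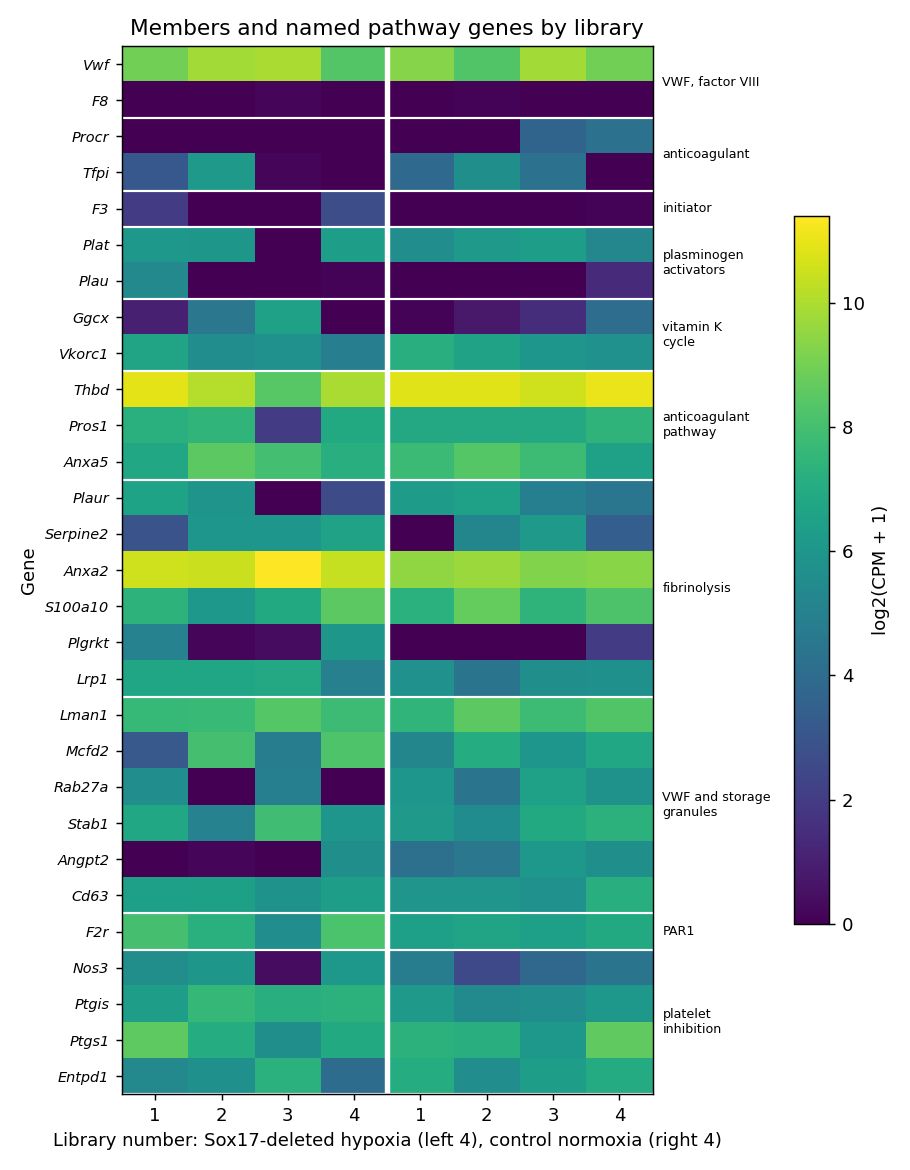
Level of the 7 members and of 22 other pathway genes with at least 20 CPM in a group, as log2(CPM + 1), in each library; the 4 Sox17-deleted hypoxia libraries are left of the 4 control normoxia libraries and genes are ordered by role. Sox17-deleted library 3 is dark for Plat, Pros1, Plaur and Nos3, and bright for Vwf and Anxa2.

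The anticoagulant list had 11 genes, of which 4 were tested, with 1 positive and 3 negative fold changes. Thbd (chromosome 2, 148404466 to 148408188, minus strand) encodes thrombomodulin, the endothelial receptor that turns thrombin from a clotting enzyme into an activator of protein C. It had 1918, 1105, 348 and 996 CPM in Sox17-deleted libraries 1 to 4 and 1837, 1801, 1529 and 2114 CPM in control libraries 1 to 4. Sox17-deleted libraries 2, 3 and 4 lay below every control library, and library 1 lay among the controls. Thbd had a log2 fold change of −0.74 (SE 0.40, edgeR unadjusted p = 0.0884, adjusted p = 0.9997). Without Sox17-deleted library 1 it was −1.18, with an edgeR unadjusted p of 0.00619 and an adjusted p of 0.309, and without library 3 it was −0.46, with adjusted p 0.902. Library 1 was also the Sox17-deleted library with the most Sox17 counts, 473, and the highest summed level of general capillary markers, 11585 CPM against 6742 to 7465 CPM in the other Sox17-deleted and 11628 to 13748 CPM in the control libraries. Library 1 also had the highest pan-endothelial, aerocyte capillary, arterial, vein and lymphatic marker sums of the Sox17-deleted libraries. These were 14983, 7625, 3715, 533 and 3273 CPM. The next highest Sox17-deleted values were 14837, 5418, 3461, 415 and 1952 CPM, so the pan-endothelial and arterial sums were higher by little. The arterial list holds Sox17 itself and shares Cxcl12 with the general capillary list. The part of Sox17 or of any of these cells in the Thbd level was not tested.

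Pros1, which encodes protein S, the cofactor of activated protein C, had 149, 176, 3.00 and 121 CPM in Sox17-deleted libraries 1 to 4 and 116, 116, 116 and 169 CPM in control libraries 1 to 4. As for Plat, Sox17-deleted library 3 stood far below, and the other Sox17-deleted libraries were at or above the lowest control. Its log2 fold change was −0.24 (SE 0.81, edgeR adjusted p = 0.9997) and 0.17 without that library, and −0.51 without Sox17-deleted library 2. Anxa5, whose product binds exposed phosphatidylserine, averaged 218 ± 118 CPM in Sox17-deleted and 215 ± 98.5 CPM in control libraries. The secreted protein C gene Proc and the antithrombin gene Serpinc1, both made in liver, were near 0: Proc had 2 counts over the Sox17-deleted and 3 over the control libraries, and Serpinc1 averaged 0.668 CPM in Sox17-deleted and 2.44 CPM in control libraries.

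The fibrinolysis list had 12 genes, 6 of them tested, with 4 positive and 2 negative fold changes. Anxa2 encodes the annexin that binds tissue plasminogen activator and plasminogen at the endothelial surface. It had 1516, 1418, 2681 and 1345 CPM in Sox17-deleted libraries 1 to 4 and 713, 825, 605 and 660 CPM in control libraries 1 to 4. All 4 Sox17-deleted libraries lay above all control libraries, with library 3 highest. Its log2 fold change of 1.36 (SE 0.34) came with an edgeR unadjusted p of 0.00134 and an adjusted p of 0.346, so Anxa2 was not called over all genes. It was called by edgeR without a filter, by DESeq2, which called 5.06% of genes, and by limma-voom, which called 0.531%. Without library 3 the log2 fold change was 0.99. Anxa2 is made by many cell types, and the alveolar type 2, club and ciliated, and fibroblast sums were higher in the same libraries. The fibroblast sum was mostly Gsn, with a positive fold change in 5 of the 8 fibroblast markers tested. The part of these cell types in the Anxa2 level was not tested. S100a10, the partner of Anxa2 in that surface complex, averaged 177 ± 128 CPM in Sox17-deleted and 258 ± 124 CPM in control libraries (log2 fold change −0.54, SE 0.54, edgeR adjusted p = 0.9997, and −1.09 to −0.20 with a library left out).

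Plaur, the urokinase receptor gene, had 96.3, 57.8, 0 and 5.11 CPM in Sox17-deleted libraries 1 to 4, against 21.2 to 89.8 CPM in control libraries. Serpine2, whose product inhibits thrombin and urokinase, averaged 56.1 ± 36.4 CPM in Sox17-deleted and 29.3 ± 32.0 CPM in control libraries. Lrp1, a receptor that clears plasminogen activators, averaged 88.6 ± 39.7 CPM in Sox17-deleted and 43.3 ± 15.7 CPM in control libraries (log2 fold change 1.08, SE 0.84, and 0.84 to 1.38 with a library left out). Plgrkt, a plasminogen receptor gene, had 417, 1, 2 and 727 counts in Sox17-deleted libraries 1 to 4 and 0, 0, 0 and 36 in control libraries. Its counts lay in the same 2 Sox17-deleted libraries as those of F3.

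**Figure D3:**
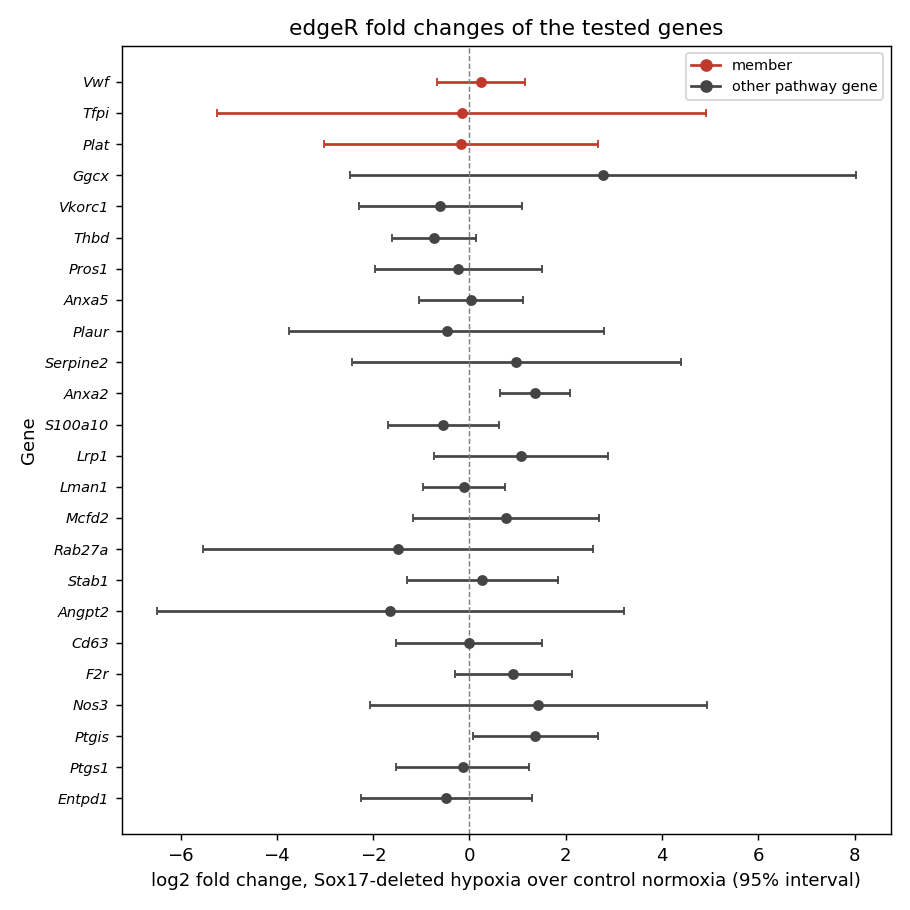
edgeR log2 fold changes, Sox17-deleted hypoxia over control normoxia, with 95% intervals, for the 3 tested members in red and the 21 tested pathway genes shown here in dark grey. The intervals of 2 genes, Anxa2 and Ptgis, exclude 0 before adjustment, and those of Ggcx, Tfpi and Angpt2 are the widest.

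Partners of von Willebrand factor and of its storage granules were measured in 13 genes, 6 of them tested, with 2 positive and 4 negative fold changes. Angpt2, which encodes an angiopoietin stored in Weibel-Palade bodies, had 0, 1, 0 and 566 counts in Sox17-deleted libraries 1 to 4 and 187, 241, 776 and 596 in control libraries 1 to 4. It was thus detected in all control libraries and in 1 Sox17-deleted library. Its log2 fold change was −1.64 (SE 2.26, edgeR adjusted p = 0.9997), and without Sox17-deleted library 4, the library that held its counts, it was −9.69 (unadjusted p 0.00465, adjusted p 0.398). The other leave-outs gave −1.87 to −1.22, with unadjusted p from 0.473 to 0.638. Angpt2 overlaps Mcph1 on the opposite strand, so its counts are uncertain. Rab27a, which encodes a GTPase of Weibel-Palade body release, had 597, 0, 206 and 0 counts in Sox17-deleted libraries 1 to 4, against 218 to 1064 in control libraries (log2 fold change −1.49, SE 1.89, and −2.28 to −1.05 with a library left out). Cd63, a granule membrane gene, averaged 77.5 ± 14.7 CPM in Sox17-deleted and 78.4 ± 40.7 CPM in control libraries. Stab1, a scavenger receptor gene that overlaps Nt5dc2 on the opposite strand, averaged 111 ± 89.7 CPM in Sox17-deleted and 98.1 ± 50.4 CPM in control libraries. Selp, which encodes the P-selectin stored beside von Willebrand factor, had 866 counts in Sox17-deleted library 1 and 479 in control library 3, and 0 in the others. Adamts13, the gene of the protease that trims von Willebrand factor, averaged 0.381 CPM in Sox17-deleted and 0.886 CPM in control libraries.

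The platelet-inhibiting list had 5 genes, 4 of them tested, with 2 positive and 2 negative fold changes. Ptgis encodes prostacyclin synthase, which makes a lipid that relaxes vessels and quiets platelets. It had 79.3, 193, 144 and 157 CPM in Sox17-deleted libraries 1 to 4 and 67.7, 42.0, 46.8 and 66.6 CPM in control libraries 1 to 4. All Sox17-deleted libraries lay above all control libraries, though library 1 exceeded the highest control by little. Ptgis had a log2 fold change of 1.37 (SE 0.61, edgeR unadjusted p = 0.0407, adjusted p = 0.902), and DESeq2 called it with an adjusted p of 0.0342. Smooth muscle cells and fibroblasts also make prostacyclin synthase. Smooth muscle and pericyte markers summed to 27.9 to 607 CPM in Sox17-deleted and 60.0 to 144 CPM in control libraries. Myh11 carried most of the Sox17-deleted sum, at 195 ± 218 CPM against 27.0 ± 27.5 CPM in control libraries. Acta2, Tagln, Notch3 and Cspg4 averaged lower in Sox17-deleted libraries, and 2 of the 4 tested had a positive fold change. The part of smooth muscle cells and fibroblasts in the Ptgis level was not tested. Nos3, the endothelial nitric oxide synthase gene, had 48.1, 64.9, 0.286 and 65.7 CPM in Sox17-deleted libraries 1 to 4, against 4.70 to 27.3 CPM in control libraries (log2 fold change 1.42, SE 1.63, edgeR adjusted p = 0.9997, and 1.12 to 1.83 with a library left out). Nos3 overlaps Atg9b on the opposite strand, so its counts are uncertain. Entpd1, whose product degrades platelet-activating ADP, averaged 65.6 ± 61.5 CPM in Sox17-deleted and 97.2 ± 40.2 CPM in control libraries, and Ptgs1, the cyclooxygenase 1 gene, averaged 169 ± 141 CPM in Sox17-deleted and 187 ± 137 CPM in control libraries.

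Of the 4 protease-activated receptor genes, F2r, which encodes the thrombin receptor PAR1, was tested. It had 257, 147, 47.6 and 290 CPM in Sox17-deleted libraries 1 to 4 and 85.9, 100.2, 85.7 and 119 CPM in control libraries 1 to 4. Sox17-deleted libraries 1, 2 and 4 lay above every control library and library 3 below every one. F2r had a log2 fold change of 0.91 (SE 0.57, edgeR unadjusted p = 0.131, adjusted p = 0.9997), and of 1.22 without Sox17-deleted library 3 (unadjusted p 0.0145, adjusted p 0.403). It was 0.64 without Sox17-deleted library 4 (unadjusted p 0.332) and 0.70 without Sox17-deleted library 1 (unadjusted p 0.281). F2rl3 was at 0 in all libraries, F2rl1 had 30 counts in a single control library and F2rl2 91 in another.

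Circulating clotting factors come mainly from liver, and 14 of the 16 genes in that list had group means of at most 11.9 CPM. Single libraries went higher: F5 had 46.1 CPM in Sox17-deleted library 4, and Kng1 24.9 and F10 16.6 CPM in Sox17-deleted library 2. The exceptions belong to the vitamin K cycle, which most cells use. Vkorc1 averaged 57.0 ± 30.6 CPM in Sox17-deleted and 87.8 ± 40.6 CPM in control libraries. Ggcx, the carboxylase gene, had 13, 206, 641 and 0 counts in Sox17-deleted libraries 1 to 4 and 1, 8, 21 and 188 in control libraries 1 to 4. The groups overlapped, and its log2 fold change was 2.76 (SE 2.45, edgeR adjusted p = 0.9997). Without Sox17-deleted library 3 it was 0.66, and without control library 4 it was 5.17. The 5 hepatocyte markers summed to 31.3 to 226 CPM in Sox17-deleted and 32.6 to 59.5 CPM in control libraries, with Alb the most abundant. Only 4 of the 16 clotting factor genes were tested. None of the 4 was called by edgeR, beside 0.0% of all 8282 genes tested.

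Sox17-deleted library 3, the shallowest, was often at an extreme, among these genes and among all genes tested. It was strictly lowest of the 8 libraries for 7 of the 29 members and named pathway genes (24.1%) and for 19.6% of all genes tested, and strictly highest for 7 of the 29 (24.1%) and for 16.8% of all genes. Plat and Thbd were among the lowest and Vwf and Anxa2 among the highest. F8 was also among the highest, through a count of 1, and the 29 include genes that were not tested. Its pan-endothelial sum was 14837 CPM, inside the range of the control group. The labels do not say whether that library differed from the others in animal or preparation.

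**Figure D4:**
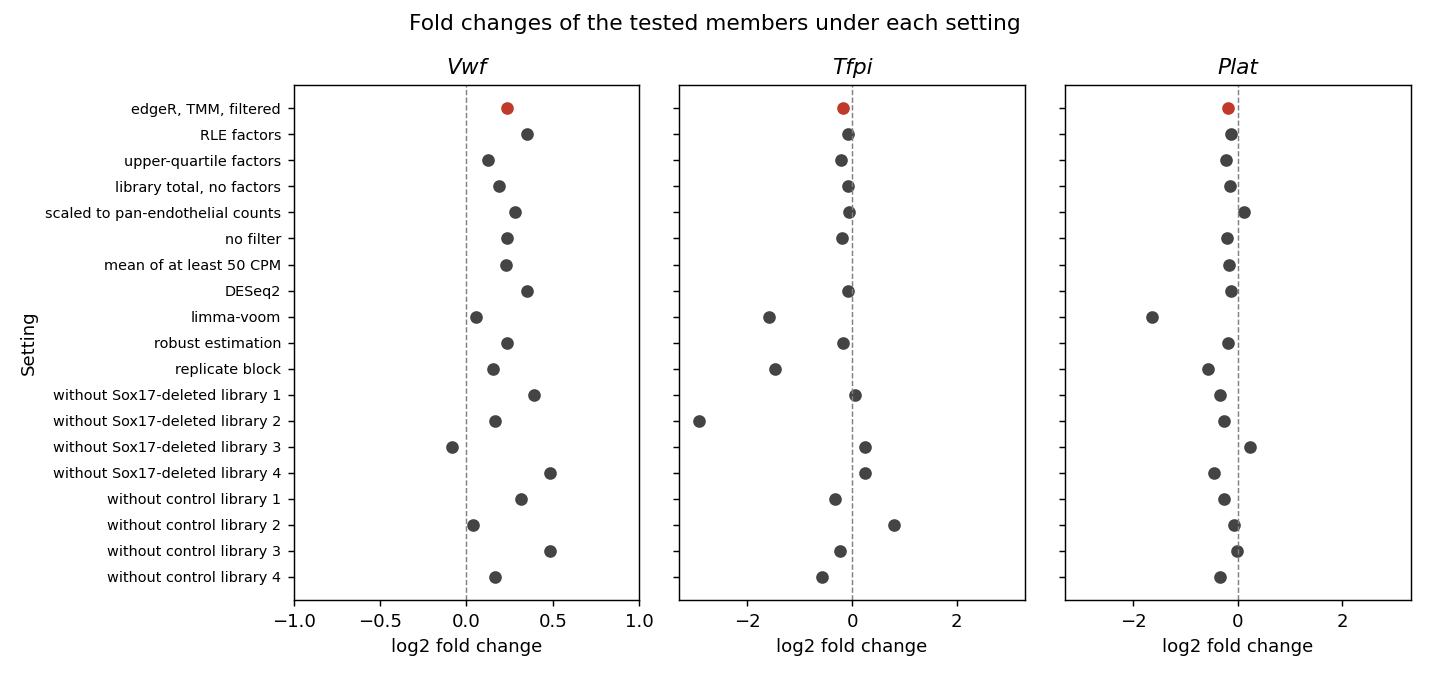
log2 fold change, Sox17-deleted hypoxia over control normoxia, of Vwf, Tfpi and Plat under the reported setting in red and each alternative in dark grey; the horizontal scale of the Vwf panel is narrower than those of Tfpi and Plat. Vwf stays between −0.09 and 0.49, Plat between −1.63 and 0.23, and Tfpi between −2.93 and 0.79, with no adjusted p under 0.05.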

How the data were processed

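Ribosome-associated RNA of lung endothelium was sequenced with a QuantSeq 3′ kit, per the labels' protocols. Each deposited table holds raw counts of 1 library by gene symbol, made by the authors with no scaling. Bowtie2, bedtools and mm10 are named in the submitters' processing notes. Neither their versions nor the strand setting nor the handling of reads with several matches is stated there, so counts of genes with near-identical copies or opposite-strand neighbours are uncertain. A 3′ tag counts transcripts whatever their length, so counts were not divided by length. Of 23282 rows, 44 repeated a symbol and were summed. Every pair of libraries differed by more than counting noise (smallest chi-square per degree of freedom 188). The table headers of Sox17-deleted libraries 2, 3 and 4 share a base name. Pairs among these 3 correlated across genes at r = 0.458 to 0.501, and pairs with library 1 at 0.472 to 0.511. The labels name no animals, so a p-value here reflects library-to-library spread, part of which may be technical.

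Differences were tested in R 4.3.3 with edgeR 4.0.16: TMM scaling factors, genes kept by filterByExpr, group alone in the model, quasi-likelihood F test, and Benjamini-Hochberg adjustment over all 8282 genes tested. The standard error is the log2 fold change divided by the square root of F. All fold changes are Sox17-deleted hypoxia over control normoxia. The code was tested on simulated counts with known fold changes. A pass was required only at a spread between libraries smaller than that of the tested members. It does not show how large a change these tests could call. Detection means 3 counts, and floors of counts cover counting error only. Intervals of fold changes were built from the standard error, so they also carry the spread between libraries. DESeq2 1.42.0 and limma 3.58.1 were alternatives. Sums per library were tested by exact permutation, two-sided and unadjusted. Positions are from GENCODE M21, GRCm38. Promoter sequences matched 4 of the 7 members (Tfpi, Procr, F3 and F8). Members and lists were chosen with earlier results of these data known. Named were the members, pathway genes reaching an average of 20 CPM in either group, and the 3 genes nearest in pattern to each member above 50 CPM. A fibrinolysis gene that met the rule stays in the fits and list counts and is not reported here. Adamts13, Proc, Serpinc1, Selp, F2rl1, F2rl2, F2rl3, F5, F10 and Kng1 were named beyond that rule, after their values were seen.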

Additional observations from a re-analysis of the deposited data

Results flagged for a closer look

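A library was set apart when the gap between the highest or lowest value and its neighbour exceeded the share of the range of its group of 4 given by Dixon's 95% critical value. Of 59 gene and group combinations checked, 14 met this, where chance gives about 1 in 20 for normally distributed values. That rate does not hold for a group with a single value above 0, which meets the limit by construction, as F8 in both groups, F3, Plau and Plgrkt in the control group did. Among the members, Tfpi was at 68.8 CPM in Sox17-deleted library 2 with the next at 7.82 CPM. Plau reached 40.3 CPM in Sox17-deleted library 1, with the next at 0.0896 CPM, and 1.60 CPM in control library 4, with the others at 0. Single counts gave 0.143 CPM of F8 in a Sox17-deleted library, 0.0904 CPM of F8 in a control library and 0.0841 CPM of F3 in a control library, all under the detection limit. Among pathway genes of the Sox17-deleted group, Anxa2 stood at 2680 CPM in library 3, Lrp1 at 29.7 CPM in library 4 and Angpt2 at 50.7 CPM in library 4. In the control group, Lrp1 stood at 19.8 CPM in library 2, and library 4 stood apart for Ggcx at 15.8 CPM, Pros1 at 169 CPM, Plgrkt at 3.03 CPM and Cd63 at 139 CPM. Genes at low counts that were seen in 1 library make up many of these.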

How the results depend on the processing

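No member was called under any of 18 alternatives to the edgeR fit: RLE or upper-quartile factors, library totals alone, scaling to pan-endothelial counts, no filter, a 50 CPM minimum mean, DESeq2, limma-voom, robust estimation, the replicate block and each library left out. Tfpi was not in the fit with the 50 CPM minimum, and the 4 untested members could be fitted without a filter and by DESeq2 only. The sign of the Vwf fold change turned in 1 of 18 alternatives, that of Plat in 2 of 18 and that of Tfpi in 4 of 17. Vwf was −0.0856 without Sox17-deleted library 3. Plat was 0.11 scaled to pan-endothelial counts and 0.23 without Sox17-deleted library 3. Tfpi was 0.05, 0.25 and 0.26 without Sox17-deleted libraries 1, 3 and 4 and 0.79 without control library 2. With a library left out the ranges were −0.09 to 0.49 for Vwf, −0.45 to 0.23 for Plat and −2.93 to 0.79 for Tfpi, and the causes were not tested. The ratio of group means, Sox17-deleted over control, was 1.14 for Vwf, 0.898 for Plat and 0.939 for Tfpi and moved by less than the spread between libraries when scaled by TMM sizes or by pan-endothelial counts. Over all genes, edgeR called 0 with 424 at an unadjusted p under 0.05, 17 without a filter, 1 with robust estimation, and from 0 to 5 with a library left out, the 5 without Sox17-deleted library 1. DESeq2 called 473 and limma-voom 44. Same-numbered libraries did not deviate together (correlations of deviations from −0.0269 to 0.0213), and 1 of 4 Sox17-deleted libraries correlated best with its own number. The replicate block gave log2 fold changes of 0.16 for Vwf, −0.57 for Plat and −1.47 for Tfpi and called no gene. Libraries with 0 or 1 count were common up to 100 CPM: of genes with a mean of 40 to 100 CPM, 31.4% had one in the Sox17-deleted and 5.69% in the control group, and the cause was not tested.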
